A study of Drosophila melanogaster with 3 samples.

Results

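Binding of a GFP-tagged CG10209 protein in Drosophila embryos was mapped by chromatin immunoprecipitation and sequencing (ChIP-seq), and 778 of the 6307 reproducible peaks (12.3%, exact binomial 95% interval 11.5 to 13.2%) lay in intergenic DNA away from promoters. A peak was taken into this class when its summit, the base of strongest enrichment, lay inside no annotated gene and over 1000 bp from the nearest annotated transcript start. The rule used position alone, not signal. Positions were read against Release 6 of the genome, the build called dm6, with transposable elements left out of the gene annotation. The samples formed 1 group of 3 biological replicates of whole embryos, 0 to 24 h old and of mixed sex, from a transgenic line that stably expresses CG10209 with GFP at its carboxyl end. Fragments precipitated with an antibody to GFP were set against 1 control alignment common to all replicates, and the design holds no second genotype, treatment or stage. The tagged protein is a fusion from an inserted transgene, and whole embryos mix all tissues and stages of that day, so strong binding in few cells and weak binding in many cannot be told apart. Replicate 1 stood apart from the other replicates in which classes of peak it covered, as given with the coverage values. Of the 4925 peaks that both other replicates covered, 562 (11.4%) were intergenic.

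Intergenic DNA in flies holds enhancers, the switch elements that set where and when a gene is transcribed, along with silencers, insulators and unannotated promoters. Enhancers are recognised by sequence-specific factors through short motifs and can act on a start many kilobases away, at times past a nearer gene. Genes that pattern the embryo, such as the pair-rule and segment polarity genes, are known for large regulatory regions of this kind. A peak in ChIP-seq marks where fragments carrying the tagged protein pile up, directly on DNA or through a partner protein, so a motif at a summit describes the DNA there and not the contact.

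The DNA under these peaks is shown first, so that a short word that recurred beside some of the summits can be seen in place. Each sequence is the plus strand of dm6, 100 bp either side of a summit, read from the RefSeq copy of the assembly, with the nearest protein-coding gene as its name. Capitals mark the 6-base core CACTGA, or TCAGTG where the core lies on the minus strand. The highest peaks of the class on arms X, 2L, 3L and 3R come first. They lay 12471 bp from chinmo, 6678 bp from CG7560 and 4168 bp from tara, and the chinmo and CG7560 summits held no core within 100 bp.
chinmo peak, chr2L:1638687-1638887: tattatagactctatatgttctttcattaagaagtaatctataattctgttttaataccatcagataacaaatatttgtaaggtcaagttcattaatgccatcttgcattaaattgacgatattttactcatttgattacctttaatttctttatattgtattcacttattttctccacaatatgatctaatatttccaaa
CG7560 peak, chr3L:11418380-11418580: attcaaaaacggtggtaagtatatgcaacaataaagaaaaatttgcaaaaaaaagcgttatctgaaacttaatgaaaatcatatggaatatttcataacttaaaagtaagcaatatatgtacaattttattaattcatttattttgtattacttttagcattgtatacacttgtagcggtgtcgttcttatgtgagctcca
tara peak, chr3R:16221383-16221583: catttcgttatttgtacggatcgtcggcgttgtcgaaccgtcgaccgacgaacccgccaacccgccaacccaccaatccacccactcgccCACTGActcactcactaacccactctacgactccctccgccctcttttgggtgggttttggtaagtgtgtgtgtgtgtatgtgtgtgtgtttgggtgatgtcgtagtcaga

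Peaks with the core followed by GA, or with 2 cores that face each other across the summit, are shown next. The slp2 and noc peaks were the highest with the 8-base word CACTGAGA within 100 bp on these arms, and both also held a second core on the opposite strand. The GCS2alpha and CG7800 peaks are others of high signal on these arms with exactly 2 facing cores within 100 bp of the summit. In these 4 the left core is read on the plus strand and the right one on the minus strand, so that each core points towards the summit between them.
slp2 peak, chr2L:3832422-3832622: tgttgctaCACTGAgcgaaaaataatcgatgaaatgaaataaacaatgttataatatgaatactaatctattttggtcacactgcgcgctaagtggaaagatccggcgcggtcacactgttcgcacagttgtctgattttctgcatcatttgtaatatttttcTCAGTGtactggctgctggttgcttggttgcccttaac
noc peak, chr2L:14502683-14502883: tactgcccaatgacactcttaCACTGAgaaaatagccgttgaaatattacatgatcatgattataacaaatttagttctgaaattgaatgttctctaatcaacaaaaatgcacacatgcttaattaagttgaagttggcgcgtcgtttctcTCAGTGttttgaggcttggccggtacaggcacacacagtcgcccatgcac
GCS2alpha peak, chrX:21593974-21594174: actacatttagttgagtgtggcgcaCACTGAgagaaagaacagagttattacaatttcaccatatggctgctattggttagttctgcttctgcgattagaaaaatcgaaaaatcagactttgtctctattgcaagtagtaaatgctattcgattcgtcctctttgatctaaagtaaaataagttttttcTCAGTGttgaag
CG7800 peak, chr3R:8212646-8212846: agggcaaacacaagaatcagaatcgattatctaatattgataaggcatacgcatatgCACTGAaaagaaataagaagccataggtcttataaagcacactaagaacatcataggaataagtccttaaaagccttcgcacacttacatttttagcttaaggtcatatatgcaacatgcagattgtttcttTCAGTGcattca

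The peak nearest to Rh5 stands for summits rich in A and T. It is the highest on these arms with the word AAAAATAT, which is in capitals as its reverse complement ATATTTTT.
Rh5 peak, chr2L:12006728-12006928: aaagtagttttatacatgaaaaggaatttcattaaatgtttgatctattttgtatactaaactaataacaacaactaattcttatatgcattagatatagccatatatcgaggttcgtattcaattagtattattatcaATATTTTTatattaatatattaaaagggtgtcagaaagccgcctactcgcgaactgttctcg

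CACTGA lay within 150 bp of 242 of the 778 intergenic summits (31.1%, exact 95% interval 27.9 to 34.5%), against 99 windows of the same length centred 1000 bp to the right (12.7%) and 98 centred 1000 bp to the left (12.6%). Within 100 bp the shares were 21.9% at summits and 8.87% in right flanks, and 7.85% of the 173459 windows of 201 bp that tile the intergenic sequence open to the rule held the core on either strand. The 7-base form CACTGAG, which contains the core, stood at 15.9% of summits within 150 bp and 2.31% of right flanks. The core was picked after its frequency in these peaks had been seen, so these shares are a description without a test. Peaks within genes over 1000 bp from starts held the core at 23.2% of summits, peaks 501 to 1000 bp from starts at 22.2%, and peaks within 500 bp at 18.0%, with flanks between 11.0% and 12.5%. CACTGAG was likewise at 10.4% of summits within genes, 6.77% at 501 to 1000 bp and 4.18% within 500 bp. Intergenic peaks thus had the highest share of both forms among the 4 classes, and peaks near starts the lowest. The similar word CACTGTG, which does not hold the core, ranked otherwise, with its lowest share at intergenic summits. Within 150 bp it was at 8.23% of these, 10.4% within genes, 12.4% at 501 to 1000 bp and 9.63% within 500 bp of starts.

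The core did not sit on the summit but beside it. Counted in steps of 40 bp, 19 cores were centred within 20 bp of the 778 summits, against 52 at 60 to 100 bp on the left and 59 at 60 to 100 bp on the right, and each step between 220 and 500 bp on either side held 8 to 22. Read along its own strand, the core had the summit downstream, on the side of its closing GA, in 254 of 307 cases within 150 bp (82.7%, exact 95% interval 78.0 to 86.8%), at a median of 85 bp. Among cores 150 to 500 bp from the summit the summit was downstream in 149 of 261 (57.1%, 50.8 to 63.2%). The same count within 150 bp gave 73.7% for peaks within genes, 71.4% at 501 to 1000 bp and 59.9% within 500 bp of starts. The share was greatest in intergenic peaks among the 4 classes. Their interval did not overlap those of peaks within genes and of peaks within 500 bp of starts, and nearly met that of peaks at 501 to 1000 bp. These intervals take cores as independent, although some peaks hold more than 1, and the core was picked after the data were seen. They are therefore not a test between classes. A check chosen after the data were seen left out replicates 1, 2 and 3 in turn. It kept the peaks of the same list covered in both other replicates, without new peak calls. The core was then at 30.4%, 30.5% and 29.2% of intergenic summits, with the summit downstream of 81.2%, 84.5% and 83.3% of cores.

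**Figure D1:**
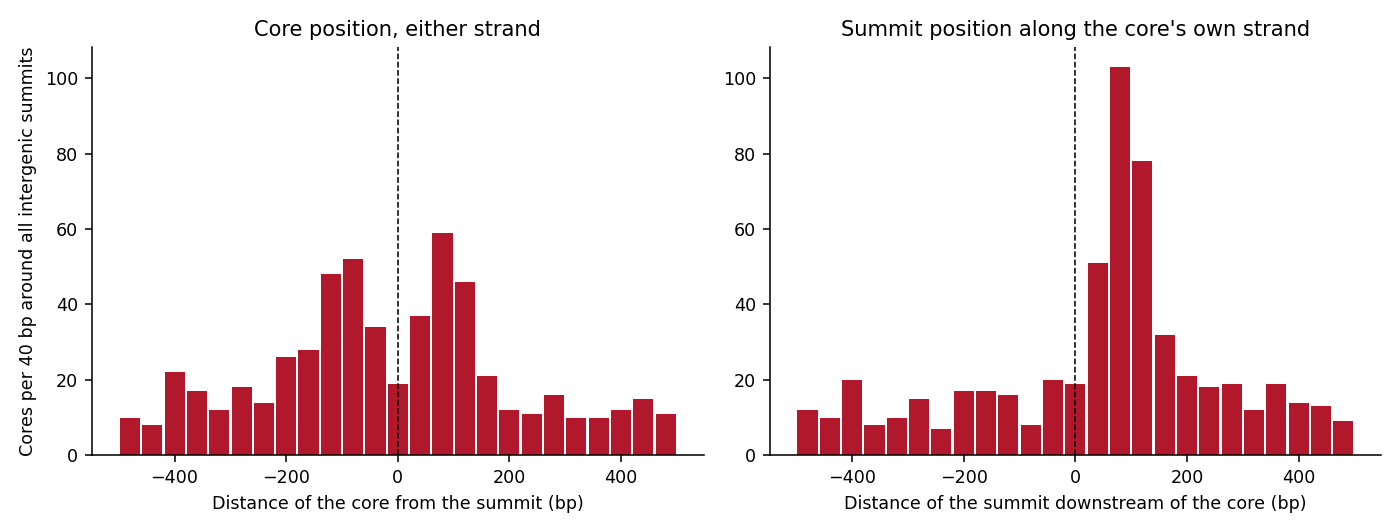
Positions of the core around the 778 intergenic summits, counted in bins of 40 bp. Left, distance of the core from the summit along the plus strand, both strands of the core together; right, distance of the summit downstream of the core along the core's own strand. The left panel has a low bin of 19 at the summit between humps of 52 and 59, and the right panel has 103 cores with the summit 60 to 100 bp downstream.

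The bases beside the 307 cores were uneven as well. T stood at the second base before the core in 56.7% of cases, the base just before the core was A in 38.8% or G in 42.7%, and the base just after it was G in 46.3% or A in 37.1%. The next 5 bases were rich in A, with A in 64.5%, 44.3%, 68.4%, 71.0% and 69.4%, and the second of these 5 was G in 40.4%. The flank before those positions, 3 to 10 bases upstream of the core, held no base above 30.0%. Of the 242 intergenic peaks with the core, 52 held exactly 2 within 150 bp. In 34 of these 52 (65.4%, exact 95% interval 50.9 to 78.0%) the cores faced each other, in 14 they ran the same way, and in 4 they faced apart. The summit lay between the facing cores in 32 of the 34, and the cores were a median of 167 bp apart, with quartiles of 141 and 194 bp. Facing cores made up 56.9% of such peaks within genes (41 of 72), 9 of 18 at 501 to 1000 bp and 40.5% within 500 bp of starts (17 of 42), with intervals that overlap that of the intergenic peaks.

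Intergenic peaks with the core had a median signal of 309 and those without it 307, and the share with the core was 31.9%, 30.1% and 31.3% in the highest, middle and lowest of 3 equal parts by signal. It was 30.1% among the 515 peaks covered in all 3 replicates and 33.1% among the other 263. On the 5 large arms it ran between 25.9% on X and 38.3% on 2L, and 2 of the 5 peaks on chromosome 4 held the core. AT content within 100 bp averaged 65.7% with the core and 63.8% without it. Repeat-masked bases made up 24.5% of the window with the core and 21.1% without it, and no summit with the core lay in an annotated transposable element.

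Words of 8 bases were chosen in peaks outside the class and then tested at intergenic summits against the window 1000 bp to the right, each peak against its own flank. Of the 10 words most in excess at the summits of 5493 other peaks, 8 (80.0% of those tested) were also in excess at intergenic summits by the exact McNemar test with Benjamini-Hochberg adjustment, and all 10 are made of A and T alone. AAAAATAT was present at 14.1% of intergenic summits and 6.17% of flanks (104 peaks with it at the summit alone, 42 at the flank alone, adjusted p = 2.99e-06, exact McNemar test). TTTAAAAA was present at 9.51% of intergenic summits and 3.86% of flanks (adjusted p = 7.75e-05, exact McNemar test). In windows of the same length across the intergenic sequence open to the rule they occurred in 7.15% and 5.48%. Both words overlap A and T runs. In the windows compared, AT content averaged 64.4% at intergenic summits and 59.0% in right flanks. By bins of 40 bp it was 66.9% at the summit, against 54.4% in the lowest bin, centred 240 bp to the left. The part of this base composition in the word counts was not tested.

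When the words came from peaks within genes over 1000 bp from starts, 9 of 10 (90.0%) were in excess at intergenic summits. Of these, 4 hold CACTGA or its reverse complement. TACACTGA was at 45 summits and 1 flank (adjusted p = 1.34e-11, exact McNemar test) and CACTGAGA at 57 summits and 7 flanks (adjusted p = 3.82e-10, exact McNemar test). CACTGTGC, which does not hold the core, was at 21 summits and 6 flanks (adjusted p = 0.00846, exact McNemar test). These words overlap each other and were already known from the whole peak list, which includes the intergenic peaks, so the tests are not independent evidence of them.

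Of 28 motifs of known fly factors, 1 (3.57%) was in excess at intergenic summits and 0 were lower at an adjusted p under 0.05 by the exact McNemar test, with 8 at an unadjusted p under 0.05. TATAAA, the letters of the TATA box, was within 100 bp of 36.6% of summits and in 23.7% of right flanks (adjusted p = 2.80e-06, exact McNemar test), against 22.7% of all windows open to the rule and 35.2% of peaks within genes. It too is made of A and T. TGCATANTT, for the insulator protein Su(Hw), was at 33 summits (4.24%) and 13 flanks (1.67%), which missed the threshold (adjusted p = 0.0512, exact McNemar test). GCCAT, for the Polycomb-group protein Pho, was at 27.4% of summits and 33.8% of flanks (adjusted p = 0.0567, exact McNemar test). AGNNGGCGC, for the insulator protein CTCF, was at 2.96% of summits and 1.67% of flanks (adjusted p = 0.371, exact McNemar test). Both the Su(Hw) and the Pho motif passed in some other settings, and in 5 of 9 other settings 1 to 3 motifs were lower at summits. Motifs were matched on both strands, N being any base.

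The other promoter and insulator motifs searched were TATCGATA for the DNA replication-related element (DRE), at 0.386% of summits and 0.129% of flanks, CGATA for BEAF-32, which the DRE contains, at 19.3% of summits and 20.3% of flanks, and GGTCACACT for core promoter motif 1, at 0.129% of summits and 0% of flanks. The first of these stood at 5.41% of peaks within 500 bp of starts and the last at 3.15%. Core promoter motif 7, searched as CATCNCTA, CATCNCTG, CAGCNCTA and CAGCNCTG, was at 5.53% of intergenic summits and 5.14% of flanks, and at 17.0% of peaks within 500 bp of starts. TCAGTT for the initiator and GAGAG for GAGA factor were also searched. Motifs of embryonic regulators were CAGGTAG for Zelda, AACCGG for Grainyhead, AGATAA for GATA factors, TAATTA for homeodomains, TAATCC for Bicoid, TTTATGG for Caudal, CATAAAAA for Hunchback, CACATG for Twist, CACCTG for Snail, CAGCTG for proneural E-boxes and GGGAAANCC for Dorsal. TAAACA for forkhead factors, AACAATG for Sox, CCGGAAG for ETS, TTCNNNGAA for STAT factors, TGANTCA for AP-1, CTTTGAT for TCF and GTGGGAA for Su(H) completed the set. None of these passed within 100 bp against the right flank, although the forkhead, homeodomain, Bicoid, E-box and STAT motifs each passed with another flank or window. The embryonic ones stood at 0.386% (Dorsal) to 22.6% (forkhead) of intergenic summits. A miss says only that these letters were not in excess within 100 bp.

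Signal values ran from 195 to 3315 over the 778 peaks, with a median of 309 and quartiles of 239 and 441. Peaks within genes had a median of 315, peaks 501 to 1000 bp from starts 346 and peaks within 500 bp 380. The signal is the deposited enrichment value of each list and is compared only within a list. Of the 630 peaks of highest signal in the whole list, 36 were intergenic, 4.63% of the class, against 594 of the 5529 other peaks, 10.7%.

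The first, the fifth and the ninth of the intergenic peaks lay on 2R around the neighbouring Psc and Su(z)2 genes, which encode a Polycomb-group protein and its paralogue. The first had its summit at 13035309 between Su(z)2 and CG13323, 11947 bp from the start of CG13323. Its pooled signal was 3315, with 1146, 844 and 1311 in the lists of replicates 1, 2 and 3, where it ranked 26, 37 and 29 of 30000 regions. The fifth and the ninth had pooled signals of 2127 and 1807 and summits at 12959441 and 12958238, in the gap between CG13321 and Psc. Both were nearer to CG13321, at 5888 and 4685 bp, than to the start of Psc, at 21217 and 22420 bp. Each of the 3 ranked within the highest 179 regions of every replicate.

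The second and the eighth lay on 2L near chinmo, a BTB zinc-finger factor that sets temporal identity in neurons, at 12471 and 7798 bp from its start and in the same gap between lncRNA:CR44603 and lncRNA:CR45695. The second had signals of 2983 in the pooled list and 1150, 664 and 1181 in replicates 1, 2 and 3. chinmo was the nearest coding gene of 7 intergenic peaks and had no promoter peak. The third, 6678 bp from CG7560 on 3L, had 2843 in the pooled list and 688, 1060 and 1162 in replicates 1, 2 and 3. The sixth, 4168 bp from tara, a nuclear cofactor gene of the trithorax group, had 2051 in the pooled list and 465, 1097 and 1022 in replicates 1, 2 and 3. Signal is on each list's own scale, and by rank within the lists of replicates 1, 2 and 3 the chinmo peak stood at 25, 69 and 36, the CG7560 peak at 127, 14 and 38, and the tara peak at 289, 11 and 56.

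The fourth lay in a gap of 1340 bp between blw, a subunit of the mitochondrial ATP synthase, and CycB, a mitotic cyclin, 3334 bp from the nearest CycB start, with a signal of 2396. The tenth lay 3347 bp from foxo, the forkhead factor under insulin signalling, with 1727. The eleventh lay 1325 bp from Rh5, which encodes a rhodopsin of the adult eye, with 1713. The fifteenth was on chromosome 4, 3923 bp from zfh2, a zinc-finger homeodomain factor, with 1602. The sixteenth lay between slp1 and slp2, paired forkhead genes of segmentation, 4318 bp from slp2, and had 1465 in the pooled list and 515, 394 and 556 in replicates 1, 2 and 3. The eighteenth lay 1275 bp from bin, a forkhead factor of the visceral mesoderm, with 1227. The nineteenth lay in the gap between corto, a chromatin protein gene, and CG43131, with 1210, and the twentieth 14356 bp from noc, a zinc-finger gene, with 1210. The others of the first 20 were nearest to CG31668, CG43245, DNAlig3, CG43131 and CG33453, with signals of 1239 to 1972. By arm, 6 of the 20 lay on 2L, 5 each on 2R and 3R, 3 on 3L and 1 on chromosome 4.

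**Figure D2:**
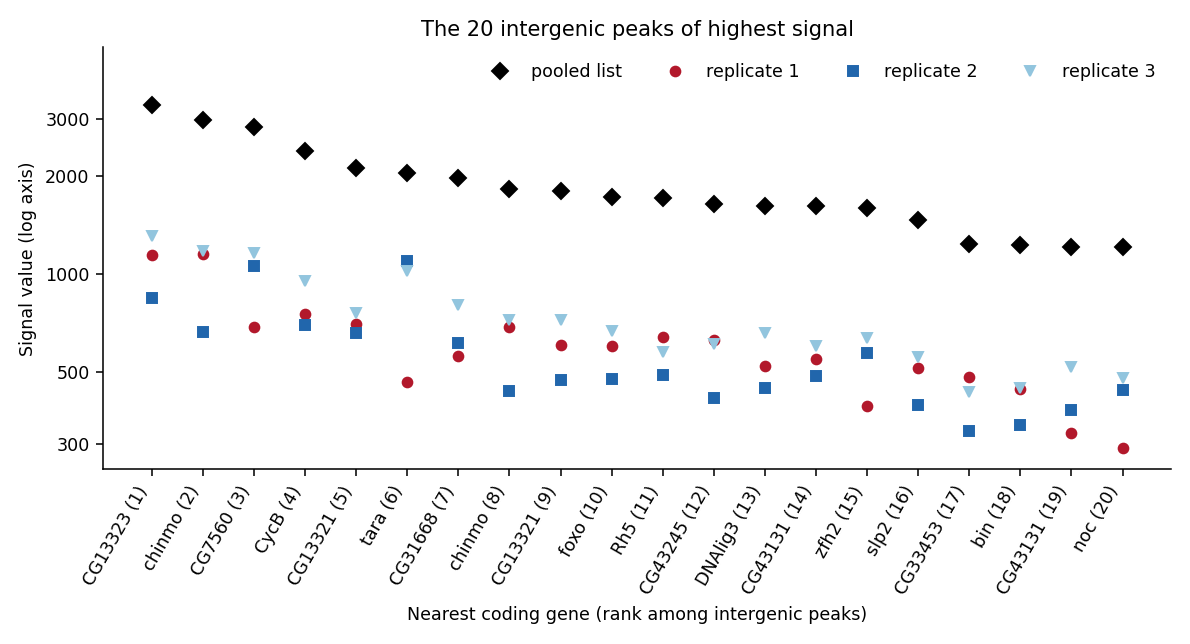
Signal value on a log axis for the 20 intergenic peaks of highest signal, in the pooled list (diamonds) and as the highest overlapping region of each replicate list. Pooled values run from 3315 to 1210, and all 20 have an overlapping region in all 3 replicates. Each list has its own scale, so heights are compared within a list and not between replicates.

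Intergenic peaks lay closer to genes than the sequence open to them, which included Y and stretches towards the centromere that held none. The part of these stretches in the fall with distance and gap length was not tested. The rule left 35.7 Mb of sequence, in which the 778 peaks amount to 21.8 per Mb. Density was 37.2 per Mb at 1000 to 2000 bp from the nearest start (173 peaks), 34.5 at 2000 to 5000 bp (316), 23.5 at 5000 to 10000 bp (173), 17.9 at 10000 to 20000 bp (93) and 2.46 beyond 20000 bp (23). The median distance was 3840 bp, with quartiles of 2121 and 7320 bp and extremes of 1022 and 39282 bp. By the length of the gap between genes, density was 46.3 per Mb in gaps up to 5000 bp and 3.06 per Mb in gaps over 50000 bp, where 34 peaks lay in 11.1 Mb. Gaps between divergent genes held 28.3 per Mb, those between genes on the same strand 21.8 and those between convergent genes 20.2. The nearest start belonged to a gene that is not protein coding for 284 of the 778. The 14 peaks in the first 100 bp beyond the 1000 bp limit had a median signal of 341, against 371 for the 18 intergenic peaks in the last 100 bp inside it.

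Arm 3L held 266 of the 778 peaks (34.2%, exact 95% interval 30.9 to 37.6%) and 23.4% of the sequence open to the rule, 31.9 per Mb. Density was 26.6 per Mb on 2L (162 peaks), 22.6 on 3R (158), 17.6 on X (85) and 14.7 on 2R (102), while chromosome 4 had 5 peaks in 0.217 Mb and Y had 0 in 2.29 Mb. The fullest megabase was the twelfth of 3L, with 44 intergenic peaks in 0.225 Mb of open sequence. Beyond the last intergenic peak towards the centromere, the 5 large arms together held 10.6 Mb of open sequence, 75 pooled regions that meet the rule and 58 peaks of other classes. Of this, 3.70 Mb lay on 2R, which has 6.94 Mb of open sequence, 3.33 on 3L, 1.31 on 3R, 1.16 on X and 1.11 on 2L. The order of the arms by density therefore rests in part on these stretches. Densities by distance and gap length count them and Y as well. Transposable elements covered 9.53 to 23.2% of the open sequence of these 5 stretches, and over the whole class 2 summits lay in an annotated element, against 11.1% of the open sequence. Mappability is not given in the deposited lists, and its part in these low densities was not tested.

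**Figure D3:**
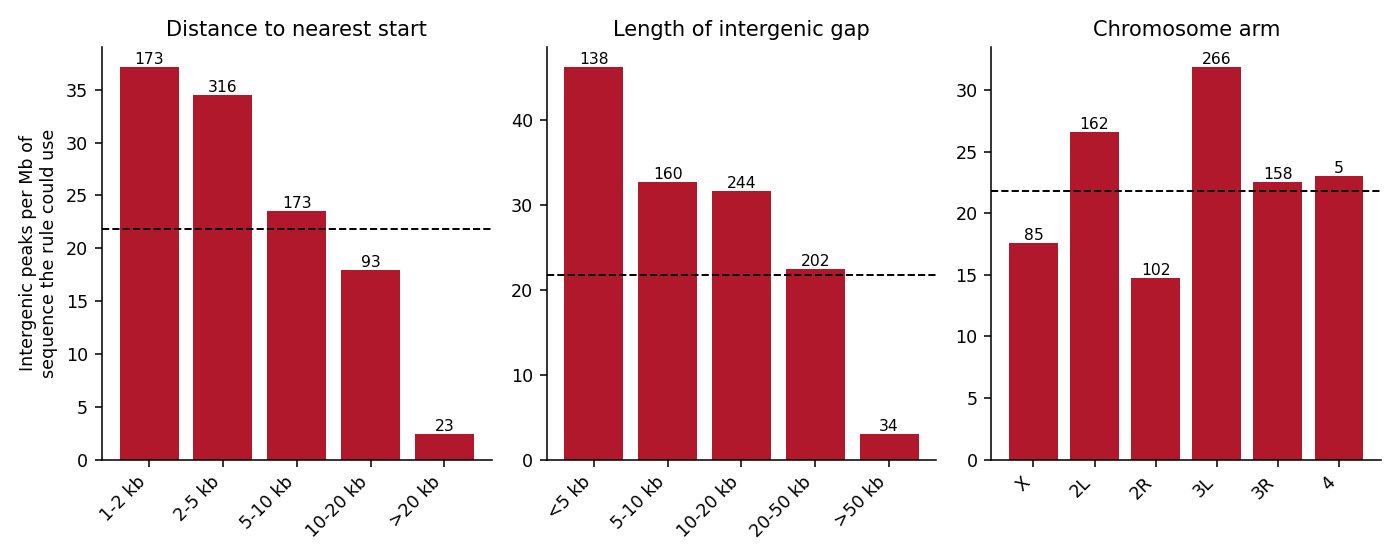
Intergenic peaks per Mb of the intergenic sequence open to the rule, by distance to the nearest start, by length of the intergenic gap and by arm, with the number of peaks above each bar and the value over all, 21.8 per Mb, as a dashed line. Density falls with distance and gap length, and the arms run from 14.7 per Mb on 2R to 31.9 on 3L. Open sequence includes the stretches towards the centromere without intergenic peaks, which are 3.70 of 6.94 Mb on 2R. Y, which held no peak, counts in the dashed line and in the panels of distance and gap length.

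The 778 peaks fell in 473 of the 4864 gaps with open sequence. A single peak lay in 313 gaps, 92 held 2, and 68 held 3 or more, which together took in 281 peaks. In 81 cases neighbouring summits were under 1000 bp apart, and 8 peaks shared their deposited interval with another. The fullest gap, 19063 bp between lncRNA:CR44363 and CG7560 on 3L, held 11 peaks with signals of 200 to 2843 and a median of 379. The gap between NijA, a ninjurin gene, and CG43245 held 10 in 75047 bp, with signals of 207 to 1645, and that between a tRNA:Ile gene and CG13898 held 10 in 32964 bp, with signals of 199 to 1162. These counts are of summits, and some neighbouring summits had the same highest overlapping signal in every replicate. In the CG7560 gap these were the peaks of 644 and 394 and those of 379 and 2843. They were those of 211 and 207 in the NijA gap, and of 433 and 327 in the CG13898 gap. The gap next to vvl, a POU homeodomain factor gene, held 7, with signals of 336 to 609, all 7 covered in every replicate. The gap between lncRNA:CR44603 and lncRNA:CR45695, near chinmo, held 6, all covered in every replicate, with signals of 418 to 2983. Of the 16 gaps with 5 or more peaks, 10 were on 3L.

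In all, 478 of 13968 coding genes (3.42%) were nearest to at least 1 peak, and 9.62% of the 4970 that are the nearest coding gene of any open sequence, at 21.8 peaks per Mb. The 21.8 per Mb counts Y, with 0 peaks in 2.29 Mb, and 10.6 Mb on the large arms beyond the last intergenic peak towards the centromere. It is therefore lower than the density over the rest of the open sequence. Lists differ in how much open sequence their genes have, so shares are given of genes that have any. Such shares do not allow for its amount. That was 0.145 Mb over 10 pair-rule genes and 0.199 Mb over 12 segment polarity genes, against 35.7 Mb over all 4970. Densities per Mb are given beside most shares. Among the 11 pair-rule genes, which set up alternate segments, 6 of the 10 with open sequence were nearest to a peak, at 96.5 per Mb. Besides slp2 and slp1 (509), they included hry, the repressor hairy, with 6 peaks of up to 550, and odd with 3 of up to 308. Gap and head-gap genes had 6 of 13, at 56.3 per Mb, among them croc (743) and ems with 4 peaks of up to 506. Segment polarity genes had 6 of 12, at 50.3 per Mb, among them ptc, the Hedgehog receptor, at 726, the T-box gene mid with 3 of up to 561, the Wnt ligand wg with 3 of up to 492, and en at 362. Lists share members, slp1 and slp2 being in the first pair of lists and wg also among the ligands, so their counts are not independent. The list of GATA and forkhead genes below holds slp1, croc and bin again, the last also being among muscle and heart genes.

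Signalling ligand genes had 8 of 16 nearest to a peak, at 71.7 per Mb, with the cytokine gene upd1 at 419, the Notch ligand Ser at 383 and the FGF ligand ths with 3 of up to 342. The GATA and forkhead genes of endoderm and ectoderm had 5 of 11, at 97.5 per Mb, among them bin (1227) and the GATA gene srp with 2 of up to 339. Imaginal and limb genes had 6 of 14, at 46.2 per Mb, led by the Iroquois gene mirr at 371. Dorsoventral genes had 4 of 13, at 108 per Mb, led by the T-box gene Doc2 with 3 of up to 580, and dpp, the BMP ligand, with 2 of up to 255. Neural fate genes had 3 of 10, with the Sox genes D at 545 and SoxN at 324. Their density was 33.1 per Mb, near the 33.8 of cuticle protein genes. Muscle and heart genes had 3 of 10, at 49.8 per Mb, with lmd at 264 after bin. Of the E(spl) genes, targets of Notch, 1 of 7 had a peak, E(spl)m5-HLH at 891. The density there, 169 per Mb, rests on 1 peak in 0.00592 Mb. Among Hox genes it was 1 of 8, Dfd at 377. Their density of 16.4 per Mb was below the 21.8 per Mb over all.

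In the other lists the share of genes nearest to a peak was below the 9.62% of all coding genes. Density in chemoreceptor and cuticle protein genes was above the 21.8 per Mb over all. That level includes Y and the stretches towards the centromere without intergenic peaks, so it does not rank these lists above the rest. Chemoreceptor genes had 7 of 95 nearest to a peak, at 23.8 per Mb, led by Gr89a at 787. Cuticle protein genes had 3 of 54, at 33.8 per Mb, led by Cpr76Ba at 783, and cell adhesion and axon guidance genes 1 of 16, robo2 at 544. Among 92 genes matched by the prefix of cytoplasmic ribosomal proteins, RpS15Aa alone was nearest to a peak, at 239, of 29 with open sequence, while 71 had a promoter peak. Ecdysone response genes had 0 of 6 and genes of insulator and interband proteins 0 of 3. Of the 478 genes nearest to a peak, 88 (18.4%) also had a peak within 500 bp of a start, against 705 of the 4492 with open sequence and no intergenic peak (15.7%) and 3004 of all 13968 coding genes (21.5%). The coding genes with most intergenic peaks were CG43245 with 11, CG7560, Ids and hng3 with 10 each, and CG13898 with 8, all on 3L, where CheA75a also had 8. The nearest gene need not be the one a site acts on, and these lists were compiled with earlier results of the data known.

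**Figure D4:**
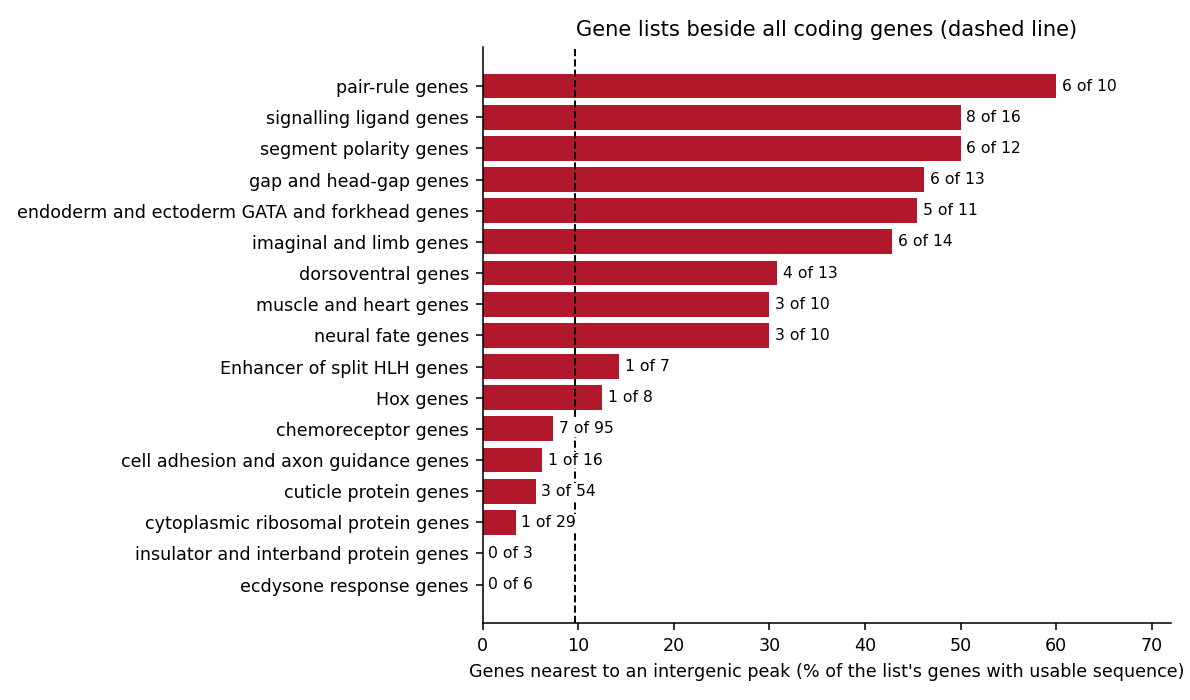
Share of each list's coding genes with open sequence that are nearest to an intergenic peak, with the numbers beside each bar and 9.62%, the share over all coding genes, as a dashed line. The 6 lists at the top, from pair-rule to imaginal genes, have shares of 42.9% (6 of 14) or more. The shares do not allow for how much open sequence each gene has.

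The 3 replicates returned most of the intergenic peaks, but not evenly. A peak counted as covered when it overlapped by at least 1 bp a region among the 6307 of highest signal in the replicate. Regions of −log10 q of 2 or more numbered 4296, 9183 and 9015 in replicates 1, 2 and 3. The 6307 of replicate 1 therefore include regions below that level, so the sets are not alike in strength. Replicate 1 covered 89.6% of intergenic peaks (697 of 778) against 82.3% of all peaks, replicate 2 covered 77.5% (603) against 83.4%, and replicate 3 covered 88.7% (690) against 90.9%. Intergenic peaks minus all other peaks differed by 8.33, -6.76 and -2.48 percentage points in replicates 1, 2 and 3, a mean of -0.31 ± 7.77 points (SD, n = 3). The exact two-sided permutation test over the 3 replicates gave p = 1, where the smallest possible p is 0.25. The replicates thus disagreed in direction, and replicate 1 stood apart. It covered 76.4% of peaks within 500 bp of starts, against 87.5% in replicate 2 and 91.5% in replicate 3, and 19 of the 778 intergenic peaks met none of its 30000 regions, against 489 of the 2701 peaks within 500 bp. All 3 replicates covered 515 intergenic peaks (66.2%, exact 95% interval 62.8 to 69.5%) and 66.0% of other peaks.

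**Figure D5:**
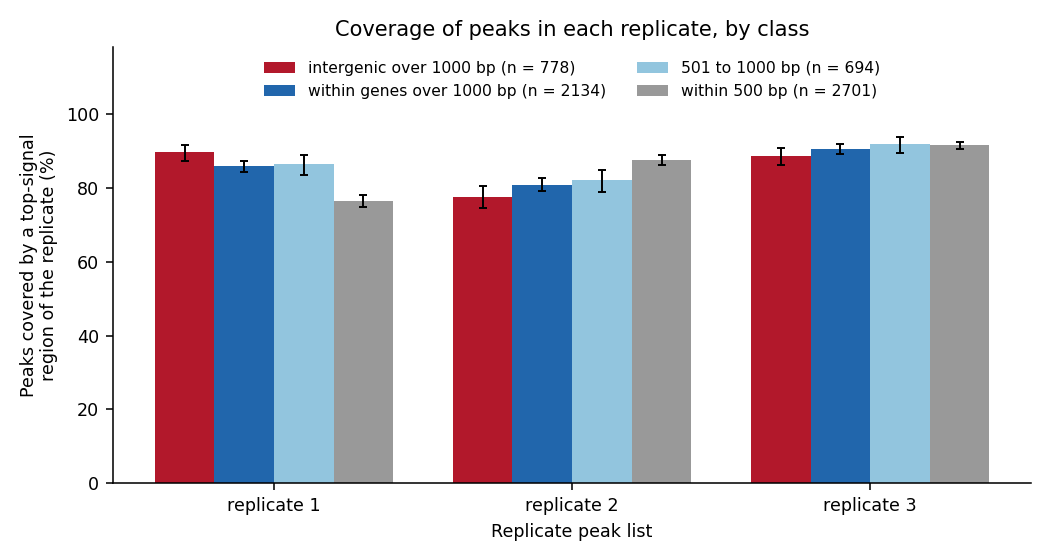
Share of peaks covered by a top-signal region of each replicate, by class, with exact binomial 95% intervals over peaks as error bars. Intergenic peaks are the class with the highest share in replicate 1 (89.6%) and the lowest in replicates 2 (77.5%) and 3 (88.7%).

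The pooled list of 30000 regions held 5773 (19.2%) that meet the rule, and 778 of these (13.5%, exact 95% interval 12.6 to 14.4%) were among the reproducible peaks, against 22.8% of the other pooled regions and 21.0% of all. Of each replicate's own 30000 regions, 24.1%, 13.8% and 18.0% met the rule in replicates 1, 2 and 3, and so did 946, 664 and 751 of the 6307 of highest signal. The intergenic share was thus greater over all 30000 regions than over the 6307 of highest signal in each replicate. It was greatest in replicate 1 in both of these sets, but among regions of −log10 q of 2 or more it was 12.6%, 11.3% and 13.3% in replicates 1, 2 and 3.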

How the data were processed

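Peaks came from ChIP-seq with an antibody to GFP in 3 replicates of CG10209-GFP embryos. The authors deposited region lists for each replicate, for the pooled reads and, after filtering by irreproducible discovery rate (IDR, agreement of ranks between replicates), the optimal peaks, with dm6 coordinates per the labels, and 1 control alignment according to deposited text files. The deposited columns used were the signal value, the −log10 q and the summit offset. No source used here gives the aligner, the caller or the cutoff of the filter, and read depth is unknown, so intervals cover counting over peaks only. Each list but the optimal one holds 30000 regions, and dm3 lists were not used. Replicates are separate biological samples per the labels.

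Genes and starts were those of the Ensembl 115 annotation (18277 genes without transposable elements), and bases came from the RefSeq copy of Release 6. Motifs and words within 100 bp of summits were set against windows of 201 bp centred 1000 bp to the right with the exact McNemar test and Benjamini-Hochberg adjustment (threshold 0.05). Words came from the other peaks whose summits lay over 1200 bp from any intergenic summit. Peaks are sites and not samples, so these tests say nothing of variation between embryos. Coverage was tested over replicates. Coding genes named were those nearest to the 20 highest peaks, up to 4 per list by highest peak, those next to peaks with a motif described, and the 5 with most peaks; vvl, NijA, CheA75a and corto were named after their values were seen. Intergenic peaks and lists were chosen with earlier results of these data known, and 7 list symbols that matched no coding gene were left out. Among them was Dl of the ligand list, annotated as Delta, which was the nearest coding gene of an intergenic peak of signal 276. The ligand counts leave it out. Alternatives changed the distance, annotation, windows, flanks, word length, gene assignment and replicates. A setting without a replicate kept the peaks of the optimal list covered in both others, with their summits and signals unchanged. For coverage it left that replicate out of the test. Scripts were tested on made-up sequence and run with Python 3.11.15, NumPy 2.4.6, pandas 2.3.3 and SciPy 1.17.1.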

Additional observations from a re-analysis of the deposited data

How the results depend on the processing

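The count of intergenic peaks stayed within 1.5 times 778 under other distances, annotations and midpoints (605 to 1033), and was 317 among the 3153 peaks of highest signal; without each replicate in turn it was 544 to 627. The coverage difference, -0.31 points, was 3.02 with all regions of each list and 0.27 with regions of −log10 q of 2 or more, and ran from -4.62 to 2.92 without each replicate, all by exact permutation tests with p of 0.5 or more, so its direction rests on the setting and the replicate. With 2 replicates left the smallest possible p is 0.5, so those tests could not have given less. Motifs in excess numbered 2 with the left flank, 3 with windows of 50 bp, 2 with windows of 150 bp and 2 with flanks in no gene, and 1 without each replicate; TATAAA was in excess in all 9 settings, Su(Hw) in 3 (lowest adjusted p = 0.0102, exact McNemar test), and Pho was lower in 4. Motifs lower at summits numbered 3 with the left flank (Pho, E-box, STAT), 2 with the flank at 2000 bp (Pho, E-box), 1 with 50 bp (Pho), 1 with 150 bp (Bicoid) and 2 with flanks in no gene (Pho, Bicoid); the forkhead motif was in excess against the left flank and the homeodomain motif within 50 bp. Words in excess numbered 2 of 10 at 9 bases, holding or overlapping the core (GCACTGAGA, CTGAGAGAA), and 5 to 8 without each replicate. Words found in peaks of odd rank and tested in 337 of even rank, chosen after the data were seen, gave 6. The core was at 31.1% of summits within 150 bp, against 21.9% within 100 bp. Coding genes numbered 762 with both flanking genes, 270 with the 389 peaks of highest signal and 348 to 398 without each replicate. The cause of these changes was not tested, apart from fewer peaks being counted in the smaller sets. No paired analysis was possible because the samples form 1 group, with no second group to pair them with; peaks were paired with their own flanks, and classes of peak within a replicate, in the tests themselves. Read depth is unknown, so weak intergenic sites cannot be told from sites missed.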
